A study of Mus musculus with 12 samples.

Results

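The genes described here are 10 feedback genes of the MAP kinase pathway: the phosphatase genes Dusp4, Dusp5 and Dusp6, the Sprouty genes Spry1, Spry2 and Spry4, the Spred genes Spred1 and Spred2, and the transcription factor genes Etv4 and Etv5. They were chosen by name, with earlier results of these data known. All 10 had a row among the 17340 genes of the deposited table, and none was removed by a filter on low counts. Their RNA was measured in KPC cells, which come from mouse pancreatic cancer, with C57BL/6 as the labelled genotype. The labels do not say whether the line is 1 clone. The 4 groups were control cells and cells given 1 µM of JQ1, I-BET151 or ITF2357 (givinostat) for 48 h, with 3 libraries each and 12 in all. The control is labelled as untreated and also as given PBS. JQ1 and I-BET151 block the bromodomains by which BET proteins hold on to acetylated histones, and ITF2357 inhibits histone deacetylases.

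Growth factor receptors and RAS switch on a chain of kinases that ends in ERK. Active ERK induces a small set of genes that act back on the chain, and their RNA is widely read as a gauge of ERK output. Dusp4, Dusp5 and Dusp6 encode dual-specificity phosphatases that remove the activating phosphates from MAP kinases, Dusp4 and Dusp5 in the nucleus and Dusp6 in the cytoplasm. Sprouty proteins restrain signalling between receptors and RAF, and Spred proteins bring the RAS inactivator neurofibromin to the membrane. Etv4 and Etv5 encode ETS transcription factors of the PEA3 group, which pass the signal on to further genes. The pathway is active in most pancreatic cancers.

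Library totals ranged from 21 to 31.2 M counts, and each member had at least 140 counts in each library. The TMM factors, which scale the totals, were 0.924 to 0.926 in I-BET151 libraries and 1.01 to 1.036 in the others. With library totals alone the median gene shifted by -0.16 on the log2 scale for I-BET151 against control. In bulk RNA, fewer cells of a type and less RNA per cell cannot be told apart, and a change of total RNA per cell is not visible. The 5 epithelial markers were all measured, with a summed level of 2900 to 2990 CPM (TMM-scaled counts per M) in control, 3100 to 3180 with JQ1, 4270 to 4340 with I-BET151 and 4560 to 4760 with ITF2357. The 5 duct markers, also all measured, summed to 2870 to 2920, 3460 to 3490, 2240 to 2270 and 2230 to 2300 CPM in the same order. Of 6 fibroblast markers 3 were measured, and their sum was 21.8 to 22.8 CPM in control, 20.8 to 26.5 with JQ1, 6.75 to 7.72 with I-BET151 and 20.2 to 23.1 with ITF2357. Of 5 leukocyte and 4 endothelial markers 1 and 2 were measured, with sums of at most 8.11 and 4.37 CPM, and 1 of 5 acinar markers, with at most 7.04 CPM. The part of these shifts in the results below was not tested. Separate cultures are not stated in the labels, and the p-values then rest on a spread between libraries that may be technical.

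All members fell with ITF2357, most fell with I-BET151, some of them further, and with JQ1 the changes were small and went in both directions. With ITF2357 all 10 members fell and 0 rose, against 26.4% of all genes that fell and 27.6% that rose (edgeR quasi-likelihood test, adjusted p under 0.05 over 17340 genes). Their median log2 fold change was -0.64, where that of all genes was -0.01, and single members ranged from -1.53 to -0.17. With I-BET151 7 members fell and 1 rose, against 32.6% and 30.5% of all genes. The median was -0.39 beside -0.03 for all genes, and the range was wider, from -2.56 to 0.11. With JQ1 4 members fell and 2 rose, against 12.3% and 12.5% of all genes, and the median was -0.09 beside 0 for all genes. The range with JQ1 ran from -0.36 to 0.13, and 0 members changed 2-fold, against 3 with I-BET151 and 2 with ITF2357. Among all genes 0.606%, 15.7% and 8.66% were called and changed at least 2-fold for JQ1, I-BET151 and ITF2357. Libraries of compound and control did not overlap for 8 members with JQ1 and for 10 with I-BET151 and with ITF2357, against 38.9%, 67.5% and 58.1% of all genes. The 3 comparisons share their control libraries. Dusp5, Spry4 and Etv5 were the 3 members that fell with every compound.

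**Figure D1:**
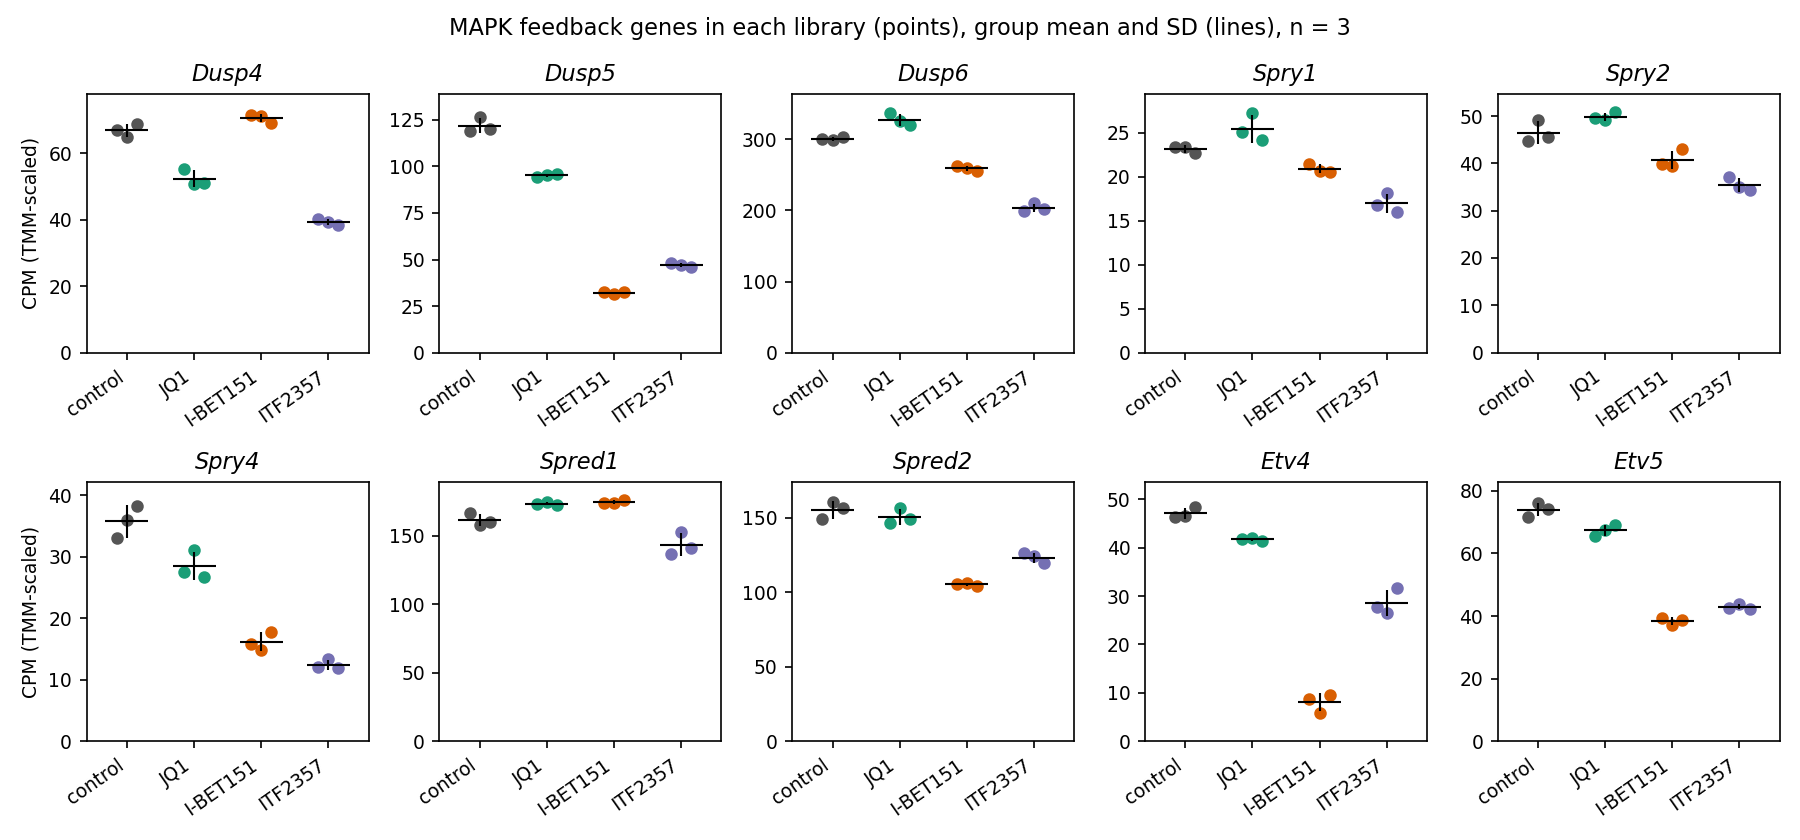
Expression of the 10 feedback genes in CPM (y axis, from 0) in each of the 12 libraries (points), with the mean (horizontal line) and SD (vertical line) of each group of 3. Dusp5 stands near 122 CPM in control and near 32 CPM with I-BET151, while Spred1 stays between 136 and 176 CPM in all libraries.

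The phosphatase genes did not move as one. Dusp5, which encodes a nuclear phosphatase specific for ERK, was read at 119, 127 and 120.2 CPM in the control libraries. It stood at 94.4, 95.3 and 96.1 CPM with JQ1, at 32.3, 31.2 and 32.4 CPM with I-BET151 and at 48.0, 47.1 and 46.2 CPM with ITF2357. All 4 groups were apart from each other, with control highest and I-BET151 lowest. Dusp5 fell by 0.36 ± 0.04 SE on the log2 scale with JQ1 (edgeR adjusted p = 1.25e-09), by 1.93 ± 0.04 SE with I-BET151 (edgeR adjusted p = 4.32e-29) and by 1.37 ± 0.04 SE with ITF2357 (edgeR adjusted p = 1.74e-25). With I-BET151 it was thus 3.81-fold lower, and 3.92% of all genes fell further.

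Dusp6, the cytoplasmic ERK phosphatase gene and the most abundant member, had 300.0, 299 and 304 CPM in control. It had 337, 326 and 320.5 CPM with JQ1, 263, 259.8 and 256 CPM with I-BET151, and 199.8, 209.9 and 202 CPM with ITF2357. The groups again did not overlap, but JQ1 lay above control here and ITF2357 lay lowest. Dusp6 rose by 0.12 ± 0.03 SE with JQ1 (edgeR adjusted p = 0.000425) and fell by 0.21 ± 0.03 SE with I-BET151 (edgeR adjusted p = 1.53e-08) and by 0.56 ± 0.03 SE with ITF2357 (edgeR adjusted p = 7.7e-19).

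Dusp4, whose nuclear phosphatase also acts on other MAP kinases, had 66.9, 64.9 and 68.8 CPM in control, and 55.2, 50.7 and 51.1 CPM with JQ1. With I-BET151 it had 71.4, 71.3 and 69.1 CPM, and with ITF2357 40.2, 39.4 and 38.5 CPM. It was lower than control in every JQ1 and ITF2357 library and slightly above it in every I-BET151 library. The falls of 0.35 ± 0.04 SE with JQ1 (edgeR adjusted p = 9.75e-08) and 0.76 ± 0.04 SE with ITF2357 (edgeR adjusted p = 1.93e-16) passed the test. The difference of 0.08 with I-BET151 did not (95% interval -0.01 to 0.17, edgeR adjusted p = 0.113), and it turned to -0.08 with library totals. Within this family the I-BET151 libraries thus had the lowest Dusp5, while their Dusp4 was near that of control.

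The 300 bases around the start of Dusp5 and Dusp6 are shown because Dusp5 fell much further than Dusp6 with I-BET151 and because the Dusp5 sequence holds an uncommon motif. They run from 250 bases before to 50 bases after the start (RefSeq, build GRCm38.p6), at chr19:53528895-53529194 on the + strand for Dusp5 and chr10:99262981-99263280 on the + strand for Dusp6. Capitals mark matches to the CArG box, the known recognition sequence of serum response factor.
Dusp5: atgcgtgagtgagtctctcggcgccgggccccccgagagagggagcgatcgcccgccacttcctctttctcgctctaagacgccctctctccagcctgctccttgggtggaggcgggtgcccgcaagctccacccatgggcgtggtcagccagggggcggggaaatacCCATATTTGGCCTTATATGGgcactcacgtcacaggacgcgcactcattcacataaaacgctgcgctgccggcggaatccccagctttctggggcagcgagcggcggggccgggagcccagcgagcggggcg
Dusp6: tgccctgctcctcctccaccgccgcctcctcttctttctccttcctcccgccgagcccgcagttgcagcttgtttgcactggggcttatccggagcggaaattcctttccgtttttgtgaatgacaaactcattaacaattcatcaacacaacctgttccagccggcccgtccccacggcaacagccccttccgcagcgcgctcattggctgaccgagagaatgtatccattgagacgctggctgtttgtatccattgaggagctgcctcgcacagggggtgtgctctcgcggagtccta
Dusp5 held 2 CArG boxes side by side, CCATATTTGG and CCTTATATGG, from 82 to 63 bases before the start, and Dusp6 held 0. The other members with a sequence, Spry1, Spry2, Spred1, Spred2 and Etv5, also held 0, though Spry2, Spred2 and Etv5 fell with I-BET151. No sequence was available for Dusp4, nor for Spry4 and Etv4, which fell with I-BET151 too. A link between the motif and the falls was not tested. Of 32851 promoters of this length, 1.63% held at least 1 CArG box on either strand and 6 (0.0183%) held 2 or more. Another 5 motifs were searched on both strands in the 7 members with a sequence: the AP-1 site TGANTCA (7.81% of all promoters), the cyclic AMP element TGACGTCA (1.79%), the E-box CACGTG (7.15%), the ETS site CCGGAAG (8.86%) and the TATA box TATAAA (13.6%). None of these 5 was found in Dusp5, Dusp6, Spry1, Spry2, Spred1, Spred2 or at either of the 2 starts listed for Etv5. The matches describe the letters of these windows and do not show binding. An antisense gene, AC137853.2, which was not analysed here, overlaps the start of Dusp5 in the annotation. Without stranded counting its reads could not be told from those of Dusp5.

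Among the Sprouty genes Spry4 stood apart. Spry4 had 32.99, 36.1 and 38.3 CPM in control and 27.6, 31.1 and 26.8 CPM with JQ1. It had 15.8, 14.9 and 17.8 CPM with I-BET151 and 12.02, 13.4 and 11.9 CPM with ITF2357. Each compound's libraries lay below all control libraries, in the order JQ1, I-BET151, ITF2357. Spry4 fell by 0.33 ± 0.07 SE on the log2 scale with JQ1 (edgeR adjusted p = 0.00043), by 1.15 ± 0.08 SE with I-BET151 (edgeR adjusted p = 4.21e-15) and by 1.53 ± 0.08 SE with ITF2357 (edgeR adjusted p = 3.52e-18). The last is the largest fall of any member with ITF2357, and 1.48% of all genes fell further. Annotated genes on the opposite strand, not analysed here, overlap Spry4 and Spry1.

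Spry1 and Spry2, the other Sprouty genes, changed less. Spry2 was at 44.6 to 49.3 CPM in control, 49.1 to 50.8 with JQ1, 39.4 to 42.9 with I-BET151 and 34.3 to 37.1 with ITF2357. It fell by 0.19 ± 0.05 SE with I-BET151 (edgeR adjusted p = 0.00186) and by 0.39 ± 0.05 SE with ITF2357 (edgeR adjusted p = 6.51e-08). Its JQ1 and control libraries overlapped (log2 difference 0.10, 95% interval 0 to 0.20, edgeR adjusted p = 0.149). Spry1 was at 22.7 to 23.4 CPM in control, 24.2 to 27.2 with JQ1, 20.6 to 21.5 with I-BET151 and 16.0 to 18.2 with ITF2357. It fell by 0.45 ± 0.07 SE with ITF2357 (edgeR adjusted p = 8.49e-07). Against control the Spry1 differences of 0.13 with JQ1 (95% interval 0 to 0.27, edgeR adjusted p = 0.151) and -0.15 with I-BET151 (95% interval -0.29 to -0.01, edgeR adjusted p = 0.0588) did not pass. The latter passed with library totals (-0.31), with upper quartile factors (-0.17), without genes under 1 CPM (-0.16) and without ITF2357 replicate 3 (-0.15).

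The Spred genes parted with I-BET151. Spred2 had 148.9, 161 and 156 CPM in control, 147, 156 and 148.8 CPM with JQ1, 106, 106 and 104 CPM with I-BET151, and 126, 124 and 119 CPM with ITF2357. JQ1 and control overlapped, and I-BET151 lay lowest. Spred2 fell by 0.56 ± 0.03 SE with I-BET151 (edgeR adjusted p = 4.26e-16) and by 0.33 ± 0.03 SE with ITF2357 (edgeR adjusted p = 1.58e-10). The log2 difference with JQ1 was -0.05 (95% interval -0.11 to 0.02, edgeR adjusted p = 0.363).

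Spred1, in which loss of function causes Legius syndrome in humans, was the steadiest member. It was at 158 to 166 CPM in control, 172 to 174 with JQ1, 174 to 176 with I-BET151 and 136 to 153 with ITF2357. It rose by 0.11 ± 0.03 SE with I-BET151 (edgeR adjusted p = 0.0038), a direction that turned to -0.05 with library totals, and fell by 0.17 ± 0.03 SE with ITF2357 (edgeR adjusted p = 4.09e-05). Its rise of 0.10 ± 0.03 SE with JQ1 (edgeR adjusted p = 0.0204) did not pass without control replicate 2 or 3 (edgeR adjusted p = 0.112 and 0.0759) or without JQ1 replicate 1 or 2 (0.0564 and 0.0612).

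The PEA3 gene Etv4 had the largest fall of any member with I-BET151. It had 46.5, 46.5 and 48.5 CPM in control, 41.8, 42 and 41.4 CPM with JQ1, 8.74, 5.91 and 9.47 CPM with I-BET151, and 27.8, 26.6 and 31.7 CPM with ITF2357. The groups did not overlap, and the I-BET151 libraries, with 140 to 206 counts each, lay far below the rest. Etv4 fell by 2.56 ± 0.09 SE on the log2 scale with I-BET151, or 5.9-fold (edgeR adjusted p = 7.32e-23), and 2.18% of all genes fell further. With ITF2357 it fell by 0.71 ± 0.07 SE (edgeR adjusted p = 1.86e-10). The log2 difference of -0.18 with JQ1 did not pass (95% interval -0.32 to -0.03, edgeR adjusted p = 0.0633). It passed with the likelihood ratio test (edgeR adjusted p = 0.0373), in a fit of those 2 groups alone (0.00203), and without I-BET151 replicate 2 (0.0182) or 3 (0.0417) or ITF2357 replicate 2 (0.0398) or 3 (0.0205). In the authors' deposited table its false discovery rate was 0.0488.

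Etv5 had 71.7, 76.1 and 74.2 CPM in control, 65.4, 67.6 and 69.0 CPM with JQ1, 39.5, 37.1 and 38.7 CPM with I-BET151, and 42.7, 43.9 and 42.4 CPM with ITF2357. Control was highest, JQ1 came next, and I-BET151 lay just under ITF2357. Etv5 fell by 0.95 ± 0.04 SE with I-BET151 (edgeR adjusted p = 3.02e-19) and by 0.78 ± 0.04 SE with ITF2357 (edgeR adjusted p = 3.59e-17). Its fall of 0.14 ± 0.04 SE with JQ1 (edgeR adjusted p = 0.0126) did not pass without control replicate 2 (0.0801) or JQ1 replicate 1 (0.0822).

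**Figure D2:**
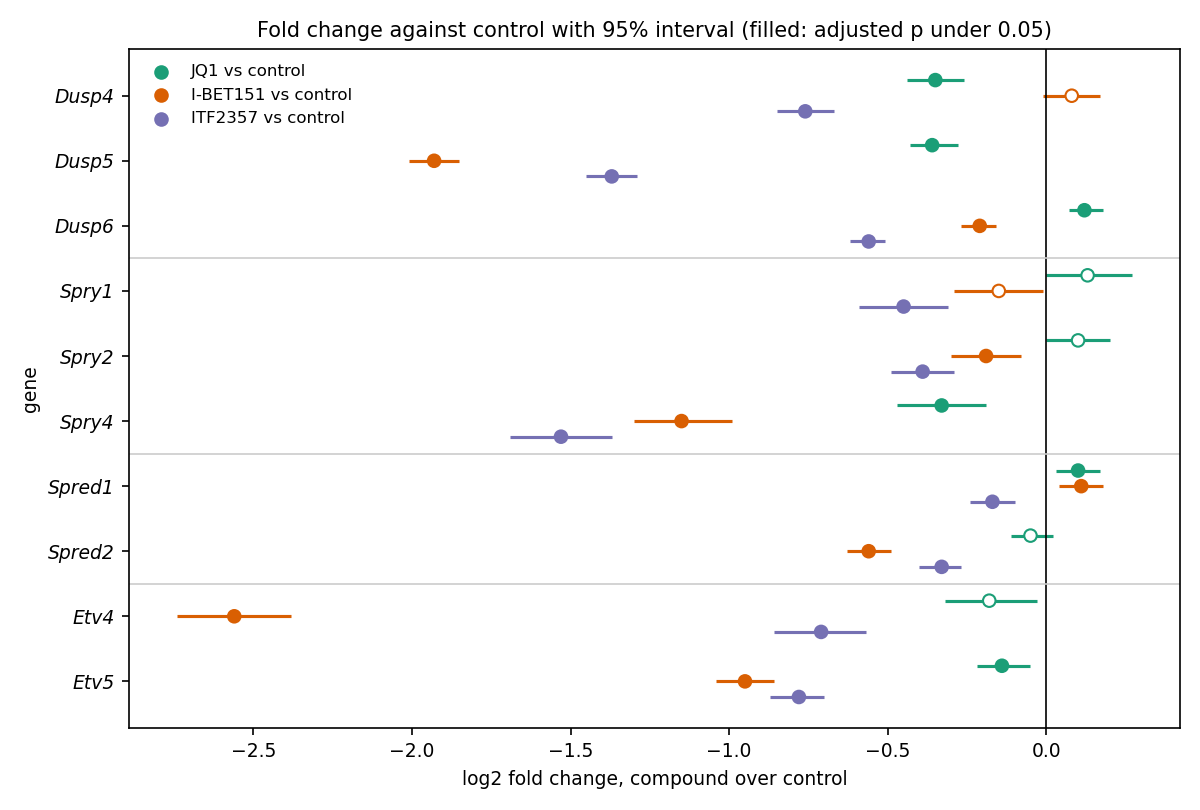
Log2 fold change of each feedback gene over control (x axis) with its 95% interval, for JQ1, I-BET151 and ITF2357, with filled points at an adjusted p under 0.05. All ITF2357 points lie left of 0, the I-BET151 points spread from -2.56 for Etv4 to 0.11 for Spred1 (which turned to -0.05 with library totals), and the JQ1 points lie between -0.36 and 0.13.

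The compounds were also set against each other at the same dose and time. JQ1, a thienotriazolodiazepine, and I-BET151, a dimethylisoxazole quinoline, are both BET inhibitors. Members were lower with I-BET151 than with JQ1 in 8 of 10 cases and higher in 1, against 30.7% and 29.8% of all genes. The libraries did not overlap for 9 members, against 65.6% of all genes, and 2 members differed at least 2-fold, against 13.6%. Etv4 was 5.23-fold lower (log2 difference -2.39 ± 0.09 SE, edgeR adjusted p = 8.34e-22), Dusp5 2.98-fold lower (-1.58 ± 0.04 SE, edgeR adjusted p = 3.37e-26), Spry4 1.76-fold lower (-0.81 ± 0.08 SE) and Etv5 1.75-fold lower (-0.81 ± 0.04 SE). The log2 differences of Spred2, Dusp6, Spry2 and Spry1 were -0.52, -0.34, -0.29 and -0.28, and these 4 passed the test as well. Dusp4 went the other way, 1.35-fold higher with I-BET151 (0.43 ± 0.04 SE, edgeR adjusted p = 1.68e-10). For Spred1 no difference was found: it was 0.01 on the log2 scale (95% interval -0.06 to 0.08, edgeR adjusted p = 0.799), a sign that turned with library totals (-0.14, edgeR adjusted p = 0.000357) and with upper quartile factors (-0.04).

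ITF2357 gave lower levels than JQ1 for all 10 members and higher for 0, against 23.2% and 25.4% of all genes. The libraries did not overlap for these 10, against 53.7% of all genes, and 2 differed at least 2-fold, against 6.34%. The log2 differences ran from -1.20 ± 0.08 SE for Spry4 and -1.02 ± 0.04 SE for Dusp5 to -0.27 ± 0.03 SE for Spred1. Against I-BET151 the set was divided. With ITF2357 6 members were lower and 4 higher than with I-BET151, against 30.9% and 31.9% of all genes. The libraries did not overlap for 10 members, against 64.6% of all genes, and 1 differed at least 2-fold, against 14%. Etv4 was 3.6-fold higher with ITF2357 (1.85 ± 0.09 SE, edgeR adjusted p = 2.84e-18), Dusp5 1.47-fold higher (0.56 ± 0.04 SE), Spred2 1.17-fold higher (0.23 ± 0.03 SE) and Etv5 1.12-fold higher (0.16 ± 0.05 SE). Dusp4 was 1.79-fold lower with ITF2357 (-0.84 ± 0.04 SE, edgeR adjusted p = 9.08e-18), and the log2 differences of Spry4, Dusp6, Spry1, Spred1 and Spry2 were -0.38, -0.35, -0.30, -0.29 and -0.20. The last of these did not pass with library totals.

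**Figure D3:**
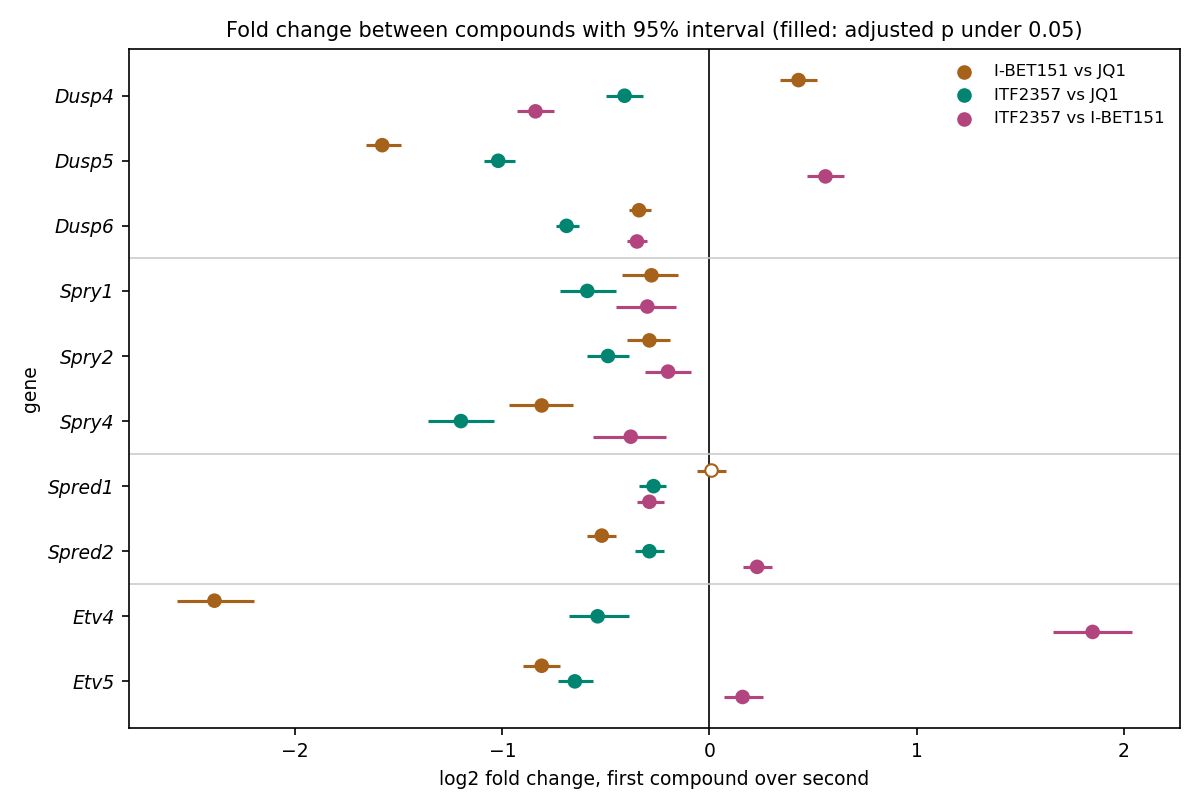
Log2 fold change of each feedback gene between compounds (x axis, first compound over second) with its 95% interval, with filled points at an adjusted p under 0.05. Dusp4 lies at 0.43 for I-BET151 over JQ1, opposite to Dusp5 at -1.58 and Etv4 at -2.39, and every point for ITF2357 over JQ1 lies left of 0.

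Levels of different genes were compared per length, as RPKM (CPM per kb of gene length in the table). In control cells Dusp6 led with 96.1 ± 0.912 RPKM (SD, n = 3), ahead of Dusp5 at 49.3 ± 1.66 and Spred2 at 33.6 ± 1.29. Dusp4 (24.4 ± 0.702), Spred1 (23.8 ± 0.655) and Spry2 (22.3 ± 1.18) followed, and the 1 SD range of each overlapped that of the next. Etv5 had 18.0 ± 0.533 RPKM and Etv4 15.2 ± 0.365. Spry1 (7.97 ± 0.15) and Spry4 (7.53 ± 0.56) were the lowest, with 1 SD ranges that also overlapped. Dusp6 stayed first in every group, at 105 ± 2.69 RPKM in JQ1, 82.9 ± 1.1 in I-BET151 and 65.1 ± 1.72 in ITF2357 libraries.

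The order below Dusp6 changed with the compound. Dusp5 stayed next to Dusp6 with JQ1 (38.5 ± 0.343 RPKM). With I-BET151 (12.9 ± 0.259) it came between Spry2 and Etv5, and with ITF2357 (19.0 ± 0.352) between Spred1 and Spry2. With I-BET151 Dusp4 (25.8 ± 0.463) and Spred1 (25.7 ± 0.234) came next after Dusp6, with overlapping 1 SD ranges. Etv4 was the lowest member there, at 2.59 ± 0.606 RPKM, and its 1 SD range overlapped that of Spry4 at 3.40 ± 0.319. With ITF2357 Spred2 followed Dusp6 at 26.7 ± 0.734 RPKM, and Spry4 was lowest at 2.61 ± 0.172.

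The make-up of the families followed from these levels and is given as a description, with no test. Of the RPKM of Dusp4, Dusp5 and Dusp6 together, Dusp5 took 29.0% ± 0.899 (SD, n = 3) in control, 23.7% ± 0.671 in JQ1, 10.6% ± 0.256 in I-BET151 and 19.3% ± 0.436 in ITF2357 libraries. The share of Dusp4 was 14.4% ± 0.403 in control and 21.2% ± 0.187 with I-BET151, and that of Dusp6 was 56.6% ± 0.508 and 68.2% ± 0.0753. Spry4 took 19.9% ± 1.27 of the Sprouty RPKM in control, 11.3% ± 0.613 with I-BET151 and 10.3% ± 0.604 with ITF2357. Spred1 had the smaller share of the Spred RPKM in control (41.5% ± 1.6) and the larger with I-BET151 (53.1% ± 0.493). In raw counts, not scaled by length, it already held 51% in control and 62.4% with I-BET151. Etv4 took 45.7% ± 0.884 of the Etv RPKM in control, 45.0% ± 0.781 with JQ1, 46.8% ± 2.68 with ITF2357 and 21.5% ± 3.65 with I-BET151. The summed RPKM of Etv4 and Etv5 was 36% of control with I-BET151 and 59.4% with ITF2357. For the phosphatases these sums were 71.6% and 58%, for the Sprouty genes 79.7% and 67.3%, and for the Spred genes 84.5% and 83.3%.

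**Figure D4:**
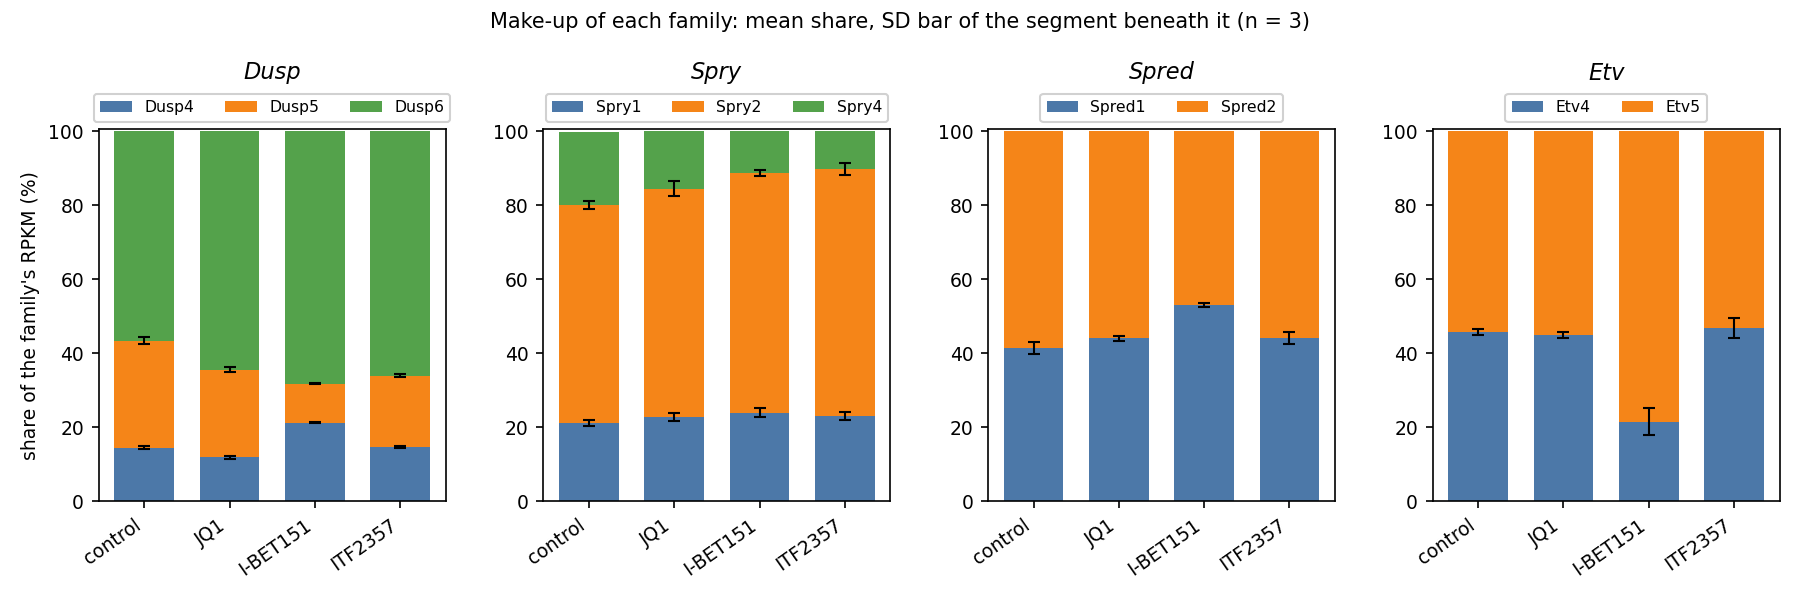
Share of each gene in the summed RPKM of its family (y axis, percent) in the 4 groups, as means of 3 libraries with the SD of a segment drawn at its upper edge. The Dusp5 segment shrinks from 29.0% in control to 10.6% with I-BET151, and the Etv4 segment from 45.7% to 21.5%.

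Some members had like profiles across the 4 group means. The measure of likeness was the root mean square difference of the group means of log2 CPM, with each gene centred on its own mean over the 4 groups (12 libraries). Spry1 and Spry2 differed by 0.039 on this scale, Dusp6 and Spry1 by 0.045 and Dusp6 and Spry2 by 0.076. The group means of these 3 genes shared one order, with JQ1 highest, then control, I-BET151 and ITF2357. The step from control to JQ1 passed the test for Dusp6 but not for Spry1 or Spry2 (edgeR adjusted p = 0.151 and 0.149). The step from control to I-BET151 did not pass for Spry1 (edgeR adjusted p = 0.0588). Among 11269 other genes that reached 2 in mean log2 CPM, the nearest to Dusp5 were Grip1 (0.035) and Unc13d (0.041), and to Etv4 Fam83f (0.046) and Cbs (0.064). The nearest to Spry4 were Nyap1 (0.081) and Arid5a (0.084), to Etv5 Prx (0.032) and Dhtkd1 (0.036), to Dusp4 Chka (0.028) and Ttll3 (0.032), and to Dusp6 Csrnp1 (0.032) and Purg (0.035). Those nearest to the less changed members were Gm48996 and Atxn1 for Spry1, Trim45 and Gm28229 for Spry2, Fbxo11 and Gm43430 for Spred1, and Runx2 and G6pc3 for Spred2, at distances from 0.0077 to 0.025.

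Some features of the genes were read from the annotation. The members lie on 9 chromosomes, and Spred2 and Etv4 share chromosome 11, at 19924375 to 20024026 on the + strand and 101769742 to 101785371 on the - strand (mm10, GENCODE M21). Dusp5 spans 53529109 to 53542431 on the + strand of chromosome 19, Dusp6 99263231 to 99267489 on the + strand of chromosome 10, and Spry4 38586247 to 38601415 on the - strand of chromosome 18. The pentamer AUUUA, the core of AU-rich elements that mark short-lived RNAs, was counted in the longest annotated 3′ UTR. Its density was above the median of 11346 genes (1.42 per kb) in 7 of 10 members, with a median of 1.85 per kb. Spred1 had 12 copies (2.77 per kb), Spry4 7 (1.97 per kb), Etv5 5 (2.31 per kb) and Spred2 4 (1.55 per kb). Dusp4, Spry1 and Spry2 had 2 each, Dusp5 and Dusp6 had 1 each, and Etv4 had 0. A link between these counts and the changes with the compounds was not tested.

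Other genes of the pathway were followed by role, in lists also drawn up with earlier results of these data known. Their counts are to be read against the shares of all genes that rose and fell, 12.5% and 12.3% with JQ1, 30.5% and 32.6% with I-BET151, and 27.6% and 26.4% with ITF2357. Unless said otherwise, the genes named had the largest rise or fall of their list among those that reached 2 in mean log2 CPM. Other MAP kinase phosphatases, 7 on the list, moved in both directions: of 6 measured, 2 rose and 0 fell in JQ1, 3 rose and 2 fell in I-BET151 and 2 rose and 2 fell in ITF2357 libraries. Their medians were 0.01, 0.10 (-0.07 with library totals) and 0.02 (-0.01 with upper quartile factors). Dusp1 rose with all 3 compounds, from 39.6 ± 0.824 CPM in control to 65.7 ± 1.55 in JQ1, 95.2 ± 2.79 in I-BET151 and 67.9 ± 2.01 in ITF2357 libraries (SD, n = 3; edgeR adjusted p = 5.92e-15, 1.53e-23 and 3.96e-17). Of the relatives of Dusp6, Dusp9 fell by 1.69 ± 0.18 SE with I-BET151, and Dusp7 fell by 0.37 ± 0.06 SE with I-BET151 and by 0.59 ± 0.06 SE with ITF2357. Of the remaining relatives of the Sprouty, Spred and PEA3 genes, Spry3, Spred3 and Etv1, 0 changed with JQ1. Spred3 fell by 0.88 ± 0.05 SE with I-BET151 and by 0.91 ± 0.05 SE with ITF2357. Etv1, a gene of low counts named here after its values were seen, fell with I-BET151, and Spry3 passed in none of the 3 comparisons.

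A list of 20 genes was drawn up as other negative regulators of RAS and ERK signalling. It includes Peak1, named here because it is a signalling scaffold gene not established as a negative regulator. Peak1 counts among the falls with I-BET151 and with ITF2357. Of the 20 genes, 3 rose and 2 fell after JQ1, 4 rose and 11 fell after I-BET151, and 2 rose and 16 fell after ITF2357. Their medians were 0.05, -0.12 and -0.24. With library totals 2 rose and 14 fell after I-BET151, with a median of -0.28. Socs2, a brake on growth hormone and cytokine receptors, fell from 32.9 ± 2.16 CPM in control to 3.27 ± 0.0758 with I-BET151 and 8.31 ± 0.553 with ITF2357. Errfi1, an inhibitor of the EGF receptor, fell from 312 ± 0.773 CPM in control to 270.0 ± 4.81 in JQ1, 127 ± 2.82 in I-BET151 and 131 ± 1.19 in ITF2357 libraries (SD, n = 3; edgeR adjusted p = 8.75e-08, 3.83e-29 and 2.24e-28). The largest rises were those of the membrane inhibitor gene Il17rd with JQ1 (0.63 ± 0.09 SE), the ubiquitin ligase gene Cblb with I-BET151 (0.64 ± 0.03 SE) and the RAF inhibitor gene Pebp1 with ITF2357 (0.44 ± 0.04 SE). Pebp1 also rose with I-BET151 (0.38 ± 0.04 SE). Il17rd was called higher with ITF2357 (0.25 ± 0.10 SE), but not without any 1 control library or ITF2357 replicate 2, nor with upper quartile factors. Cblb rose with JQ1 (0.13 ± 0.03 SE) and fell with ITF2357 (-0.15 ± 0.03 SE).

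Genes of the kinase chain itself moved in both directions. Of 29 genes from Grb2 and Sos1 through the RAS, RAF, MEK and ERK genes to the ERK-activated kinases, 9 rose and 7 fell in JQ1, 14 rose and 8 fell in I-BET151 and 11 rose and 9 fell in ITF2357 libraries. Their medians were 0.04, 0.14 and -0.02. The balance of directions depended on the scaling: with library totals 6 rose and 8 fell in JQ1 libraries and 7 rose and 12 fell in I-BET151 libraries (median -0.02), and with upper quartile factors 8 rose and 11 fell in ITF2357 libraries. Mknk2, a kinase downstream of ERK, rose by 1.64 ± 0.04 SE with I-BET151 and by 0.33 ± 0.04 SE with ITF2357. The scaffold gene Ksr1 fell by 0.80 ± 0.08 SE with I-BET151. Of the RSK kinase genes, whose proteins ERK activates, Rps6ka2 fell by 0.49 ± 0.08 SE with JQ1, by 0.70 ± 0.08 SE with I-BET151 and by 0.83 ± 0.08 SE with ITF2357. Rps6ka1 rose by 0.54 ± 0.04 SE with I-BET151 and by 0.44 ± 0.04 SE with ITF2357. With JQ1 Mknk2 (0.10 ± 0.04 SE), Ksr1 (0.20 ± 0.07 SE) and Rps6ka1 (0.12 ± 0.04 SE) were called higher, but not without control replicate 1 or 2 or any 1 JQ1 library, and for Mknk2 and Rps6ka1 also not with library totals or without some of the other libraries. Frs2, an adaptor of FGF receptors, rose by 0.23 ± 0.04 SE with JQ1 and by 0.51 ± 0.04 SE with I-BET151. Among 18 measured receptor tyrosine kinases 7 rose and 1 fell in JQ1, 8 rose and 9 fell in I-BET151 and 6 rose and 7 fell in ITF2357 libraries, with medians of 0.14, -0.25 (-0.41 with library totals) and -0.04. Met, the hepatocyte growth factor receptor gene, rose by 0.15 ± 0.03 SE, 0.92 ± 0.03 SE and 0.43 ± 0.03 SE with JQ1, I-BET151 and ITF2357, and Erbb3 by 0.50 ± 0.08 SE, 0.72 ± 0.08 SE and 0.43 ± 0.08 SE. Pdgfra moved in opposite directions, falling with I-BET151 (-1.50 ± 0.18 SE) and rising with ITF2357 (0.65 ± 0.14 SE). Tyro3 fell with I-BET151 (-2.05 ± 0.12 SE), and Fgfr1 fell with I-BET151 (-1.05 ± 0.07 SE) and ITF2357 (-1.57 ± 0.07 SE). Receptor genes of lower mean level, named after their values were seen, moved further. Ddr2, a collagen receptor gene, went from 13.8 ± 0.431 CPM in control to 8.58 ± 0.683 in JQ1, 0.685 ± 0.139 in I-BET151 and 0.634 ± 0.407 in ITF2357 libraries, and was the 1 receptor gene that fell with JQ1. With I-BET151 Ret fell from 2.84 ± 0.324 to 0.605 ± 0.364 CPM, and Fgfr3 rose from 0.945 ± 0.0422 to 3.45 ± 0.674 CPM.

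The last list held other output genes of ERK signalling, most of them known to be induced by it, and also Elk1, Elk3 and Elk4, whose proteins ERK phosphorylates. Of 19 measured, 13 fell and 4 rose with I-BET151, and 14 fell and 4 rose with ITF2357. Their medians were -0.90 and -0.25. With library totals 2 rose and 15 fell with I-BET151. With JQ1 7 fell and 5 rose, with a median of -0.03. The AP-1 gene Fosl1 fell from 105 ± 3.49 CPM in control to 76.7 ± 4.48 in JQ1, 9.17 ± 0.594 in I-BET151 and 49 ± 1.07 in ITF2357 libraries (SD, n = 3; edgeR adjusted p = 2.71e-10, 4.03e-32 and 7.1e-21). Hmga1, a chromatin protein gene, fell from 597 ± 6.61 CPM to 402 ± 5.16 in JQ1, 99.8 ± 2.76 in I-BET151 and 191 ± 5.95 in ITF2357 libraries. The ephrin receptor gene Epha4 rose by 0.14 ± 0.03 SE, 0.58 ± 0.03 SE and 0.30 ± 0.03 SE in that order. Ier3, an immediate early gene, rose by 0.40 ± 0.04 SE with JQ1 and 0.25 ± 0.04 SE with I-BET151 and fell by 0.50 ± 0.04 SE with ITF2357. Phlda1 rose by 0.32 ± 0.04 SE with ITF2357, and its difference of 0.09 ± 0.04 SE with I-BET151 turned to -0.07 with library totals.

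**Figure D5:**
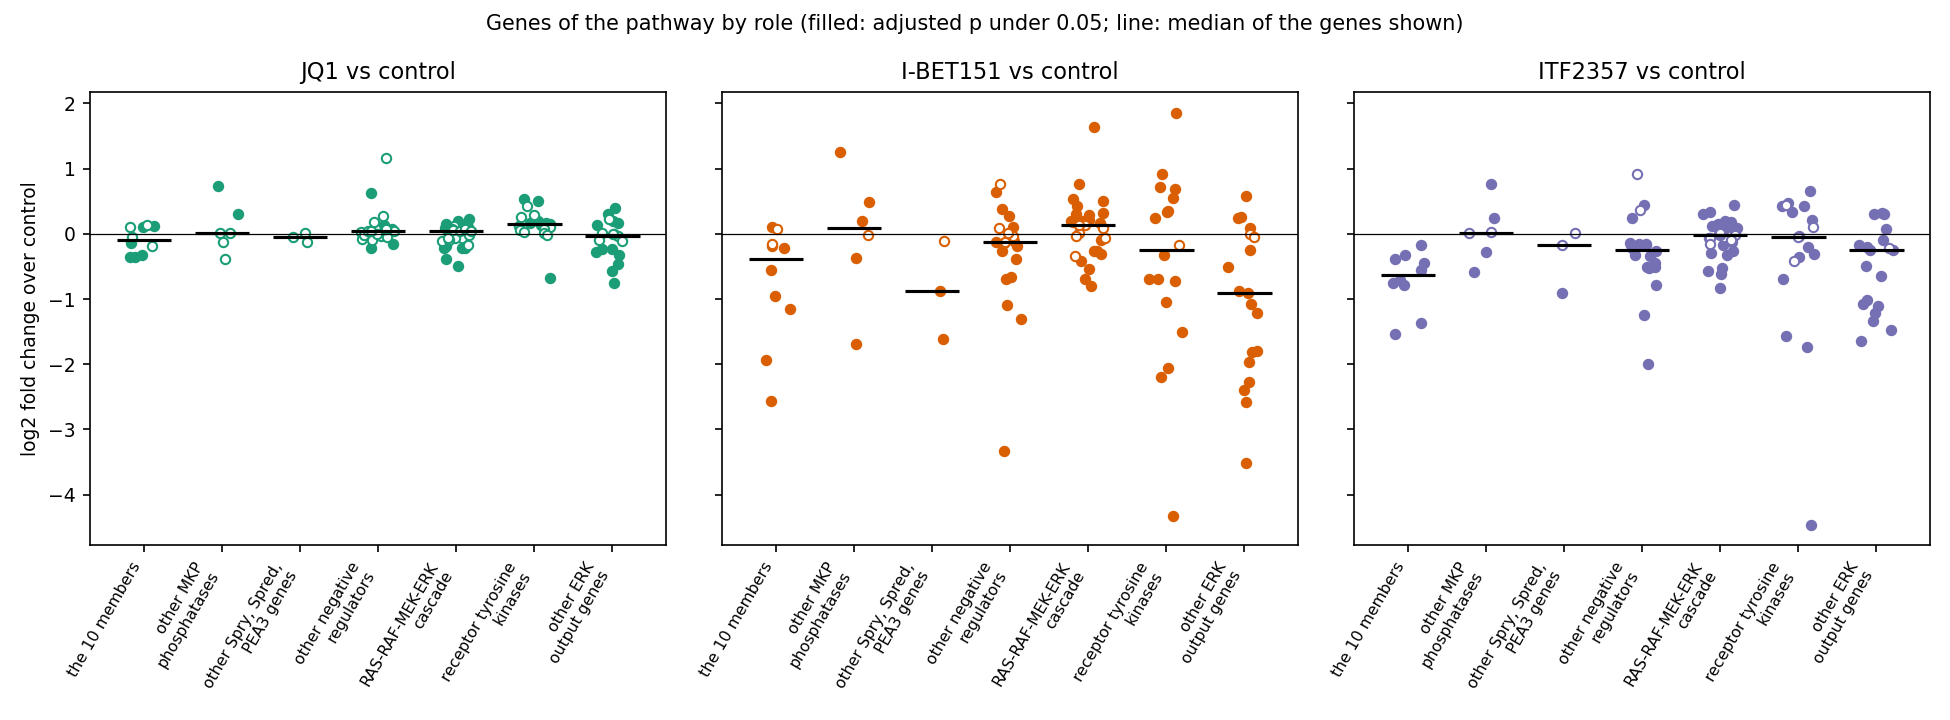
Log2 fold change over control (y axis) of the 10 feedback genes and of the genes of 6 lists by role, for JQ1, I-BET151 and ITF2357, with filled points at an adjusted p under 0.05 and lines at the median. The median of the feedback genes is -0.64 with ITF2357 and that of the kinase chain is -0.02, and with I-BET151 these are -0.39 and 0.14 (-0.02 for the chain with library totals).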

How the data were processed

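Total RNA of the 12 libraries was read in paired ends of 100 bases, per the labels' protocols. Per the submitters' processing notes, the reads were processed with STAR 2.7.2a, Subread 2.0.1 (featureCounts), bcl2fastq and edgeR 3.38.4 on build mm10. Annotation and strand setting are not given in the sources used here. Raw counts per gene were deposited by the authors with their own log2 CPM, log2 RPKM and log2 fold changes, p-values and false discovery rates. The counts were used here; the deposited log2 CPM served to check the columns, and the deposited fold changes gave the same call for 29 of 30 member comparisons.

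Counts were fitted in R 4.3.3 with edgeR 4.0.16: filterByExpr (0 genes removed), TMM factors, and 1 quasi-likelihood fit of all 12 libraries in 4 groups, without covariates. In each of 6 comparisons p-values were adjusted (Benjamini-Hochberg) over 17340 genes, and calls made under 0.05. Standard errors come from the fit's F statistic, and 95% intervals use its degrees of freedom. Gene identifiers matched GENCODE M21 in 99% of cases, and promoters are from RefSeq.

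The members and lists were chosen with earlier results of these data known. Besides the members, the text names their 2 nearest profiles and, per list and compound, the largest called rise and fall at a mean log2 CPM of at least 2, with their called values for the other compounds.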

Additional observations from a re-analysis of the deposited data

How the results depend on the processing

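Each comparison was repeated with RLE factors, library totals, upper quartile factors, no filter, genes above 1 CPM only, DESeq2 1.42.0, the likelihood ratio test, the 2 groups alone, a replicate block, and without each library in turn. Of 1260 member values, 1238 kept direction and call. The repeat with no filter equals the main fit, since the filter had removed 0 genes, so its values could not change. Leaving out a library of neither group acts on a comparison only through the shared filter, scaling and spread. The 1238 values therefore include many that had little or no room to change. Dusp4 (-0.08) and Spred1 (-0.05) turned below 0 with library totals for I-BET151 against control, so that 0 members rose there. For I-BET151 against JQ1, Spred1 was -0.14 with library totals, -0.04 with upper quartile factors and 0 without genes under 1 CPM. The fall of Spry2 for ITF2357 against I-BET151 was lost with library totals (-0.06, edgeR adjusted p = 0.289). The repeats for the pathway lists and their genes were added after seeing the data. Phlda1, outside the members, turned from 0.09 to -0.07 with library totals for I-BET151 against control. The causes were not tested. In raw counts Dusp5 took 24.9% of its family in control and 8.83% with I-BET151, and Spry4 33.9% and 20.8%. Library totals also lowered the share of rises among all calls from 48.4% to 33% for I-BET151 against control and from 49.3% to 31.1% for I-BET151 against JQ1, and raised it from 50.8% to 65.5% for ITF2357 against I-BET151.

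Without single libraries, 1 to 2 members rose and 3 to 5 fell with JQ1, 7 to 8 fell with I-BET151, and 10 fell with ITF2357. The genes called numbered 3457 to 4724 with JQ1, 10246 to 11249 with I-BET151 and 8619 to 9378 with ITF2357. The main fit shares its estimate of the spread among the 4 groups. Replicate pairs gave a chi-square per degree of freedom of 2.69 to 5.2 in ITF2357 libraries and 1.62 to 2.32 in the other groups. A fit of the 2 groups alone called 4948, 11003 and 8951 genes with JQ1, I-BET151 and ITF2357. The main fit called 4308, 10945 and 9356. Replicate numbers did not pair the libraries: deviations of equally numbered libraries correlated with r from -0.152 to 0.062. With a replicate block 4141, 10865 and 9247 genes were called against control, and no member call changed; outside the members, Mknk2 and Rps6ka1 were no longer called with JQ1 (edgeR adjusted p = 0.0521 and 0.0523).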

Other observations

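In the RefSeq promoter table, 6 entries held 2 or more CArG boxes within the window searched, and they belonged to 5 genes. Of these genes Dusp5 and Srf, which encodes serum response factor itself, had counts here. The log2 fold change of Srf was -0.14 with JQ1 (edgeR adjusted p = 0.113), 0.27 with I-BET151 (edgeR adjusted p = 0.000208) and 0.05 with ITF2357 (edgeR adjusted p = 0.542). For Dusp5 these values were -0.36, -1.93 and -1.37. Srf was chosen after its promoter and values were seen, and a link between the motif and these values was not tested.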
